A study of Mus musculus with 18 samples.

Results

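Prostanoids are lipid mediators made from arachidonic acid, which cytosolic phospholipase A_2_ (cPLA_2_) releases from membranes. The cyclooxygenases encoded by *Ptgs1* and *Ptgs2* turn arachidonic acid into prostaglandin H_2_, from which terminal synthases make prostaglandin E_2_ (PGE_2_), thromboxane and other products that act on cells through G protein-coupled receptors. In dendritic cells (DCs), PGE_2_ signaling through the EP_2_ and EP_4_ receptors is known for its effects on maturation and migration. The expression of 10 prostanoid synthesis, receptor and breakdown genes was described here across the 6 conditions of a bulk RNA-seq experiment on mouse bone marrow-derived DCs. These genes were chosen by name. They were the cyclooxygenases *Ptgs1* and *Ptgs2*, the thromboxane synthase *Tbxas1*, the PGE synthases *Ptges*, *Ptges2* and *Ptges3*, the PGE_2_ receptors *Ptger2*, *Ptger3* and *Ptger4*, and *Hpgd*, which encodes the 15-hydroxyprostaglandin dehydrogenase that inactivates PGE_2_. All 10 were found among the 62197 genes of the table, each in a single entry. Of these 10, 9 reached 10 normalized counts in 3 or more libraries and were among the 17875 genes tested, and *Hpgd* was not.

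The study asked how DCs respond to being squeezed, and what cPLA_2_ contributes to that response. DCs were grown for 10 days with granulocyte-macrophage colony-stimulating factor from the bone marrow of 6- to 8-week-old mice, and the semiadherent cells were used. The cPLA_2_ KO mice carried floxed *Pla2g4a* alleles and *Itgax*-cre, which is active in CD11c+ cells, and cPLA_2_ WT mice served as controls. Each genotype was either nonconfined and collected at the end of culture, confined at 3 µm and collected 4 h later, or given 100 ng/ml lipopolysaccharide (LPS) for 30 min, washed and collected the next day without confinement; the time with LPS is that of the labels, and the study's methods give a slightly shorter one. There were 3 libraries in each of the 6 groups and 18 in all, with 33027230 to 61300021 reads on genes per library. Polyadenylated RNA had been sequenced, and the labels name a pair of stranded kits with no assignment of kits to libraries. The protocol text mentions LPS for every sample, whereas titles and treatment entries name it for the LPS groups alone, and the latter were followed. Time in culture differed between the treatments, so treatment and time cannot be told apart. The authors call the replicates biological, and describe replicates of the study in general as independent, without saying whether each of these libraries came from an animal or culture of its own, so the p-values measure only the spread between these samples, which may be technical.

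The targeted gene was examined first. *Pla2g4a* was at 697, 686 and 770.4 normalized counts in nonconfined cPLA_2_ WT libraries and at 548, 542 and 533 in nonconfined cPLA_2_ KO libraries. In confined cells the values were 1369, 1430.3 and 1321 in cPLA_2_ WT and 923, 871 and 919.5 in cPLA_2_ KO libraries. Both times every cPLA_2_ KO library was below every cPLA_2_ WT library, and the transcript was still present. After LPS the order was the opposite. The libraries labelled LPS cPLA_2_ WT held 1005, 969 and 967 normalized counts of *Pla2g4a*, and those labelled LPS cPLA_2_ KO held 1065, 1032 and 1028. Reads of the Y-linked gene *Ddx3y* followed the genotype in the other 12 libraries, at 0 to 3.05 normalized counts in cPLA_2_ WT and at 874 to 1036 in cPLA_2_ KO libraries. In the LPS libraries they did not, with 1271, 0 and 662 in replicates 1, 2 and 3 labelled cPLA_2_ WT and 2.12, 1476 and 783 in those labelled cPLA_2_ KO. The genotype labels of the LPS libraries were therefore not borne out by these genes, and the groups are called the libraries labelled LPS cPLA_2_ WT and labelled LPS cPLA_2_ KO. *Xist*, which is transcribed from the inactive X chromosome, was at 22734 to 33681 in nonconfined and confined cPLA_2_ WT libraries and at 12153 to 24835 in the cPLA_2_ KO ones, so each cPLA_2_ KO library held *Xist* and Y-linked reads together. In the nonconfined and confined groups, the genotype and the sexes of the donors cannot be told apart.

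Values were compared as log2(normalized count + 1) with limma in a single fit of all 18 libraries, and a gene was called at a Benjamini-Hochberg adjusted p under 0.05 over the 17875 genes tested, with no limit on the fold change. Folds given as multiples are ratios of group means of normalized counts, and log2 fold changes come from the fit with their standard errors (SE). The interaction is the log2 change with confinement in cPLA_2_ KO cells minus that in cPLA_2_ WT cells.

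The inducible cyclooxygenase gene *Ptgs2* was scarce in nonconfined cells. Its normalized counts were 84.6, 76.7 and 84.5 in nonconfined cPLA_2_ WT libraries and 70.5, 77.3 and 95.1 in nonconfined cPLA_2_ KO libraries. In confined cells it was at 36417, 35339 and 36222 in cPLA_2_ WT libraries and at 2387, 2179.6 and 2199.9 in cPLA_2_ KO libraries. All 6 confined libraries lay above all 6 nonconfined ones, and among confined libraries the genotypes were far apart, whereas nonconfined libraries of both genotypes overlapped. The mean rose 439-fold with confinement in cPLA_2_ WT cells (log2 fold change 8.76 ± 0.07 SE, limma adjusted p 1.56e-26). In cPLA_2_ KO cells it rose 27.9-fold (4.79 ± 0.07, adjusted p 2.04e-21). The change with confinement was thus smaller in cPLA_2_ KO cells, with an interaction of -3.97 ± 0.10 (adjusted p 9.85e-18), but it was not absent. In bulk RNA, fewer cells of a type and less RNA per cell cannot be told apart. Between the genotypes, the confined cPLA_2_ KO mean was 16.0-fold lower than the cPLA_2_ WT mean (-4.00 ± 0.07, adjusted p 8.50e-21), and the nonconfined means differed by -0.03 ± 0.07 (adjusted p 0.884). Higher still were the libraries labelled LPS cPLA_2_ WT, at 75469, 74968 and 75273 normalized counts, and those labelled LPS cPLA_2_ KO, at 72803, 71446 and 72029.6. The labels differed by -0.06 ± 0.07 (adjusted p 1.00), although the groups did not overlap. Against the nonconfined cells of the same labelled genotype, LPS went with a 918-fold higher mean in cPLA_2_ WT (9.83 ± 0.07, adjusted p 1.88e-27) and an 890.4-fold higher mean in cPLA_2_ KO (9.79 ± 0.07, adjusted p 1.97e-27).

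The other cyclooxygenase gene, *Ptgs1*, which is commonly expressed without stimulation, moved the opposite way. Nonconfined libraries held 13495, 12496.5 and 13008 normalized counts of *Ptgs1* in cPLA_2_ WT and 11764, 12234 and 12678 in cPLA_2_ KO cells. Confined libraries held 4453, 4170.0 and 4319 in cPLA_2_ WT and 6415, 6007 and 6465 in cPLA_2_ KO cells. Every confined library was below every nonconfined one, with the cPLA_2_ KO libraries in between. The mean was 3.01-fold lower with confinement in cPLA_2_ WT (-1.59 ± 0.05, limma adjusted p 5.85e-17) and 1.94-fold lower in cPLA_2_ KO cells (-0.96 ± 0.05, adjusted p 1.16e-12). The interaction was 0.63 ± 0.07 (adjusted p 3.09e-07), so the decrease was smaller in cPLA_2_ KO cells. The lowest levels were in the LPS libraries, at 1643, 1552 and 1666 where labelled cPLA_2_ WT and at 1574, 1515 and 1656 where labelled cPLA_2_ KO. These LPS groups overlapped each other and were 8.02-fold (-3.00 ± 0.05, adjusted p 5.76e-22) and 7.73-fold (-2.95 ± 0.05, adjusted p 8.24e-22) below their nonconfined counterparts.

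**Figure D1:**
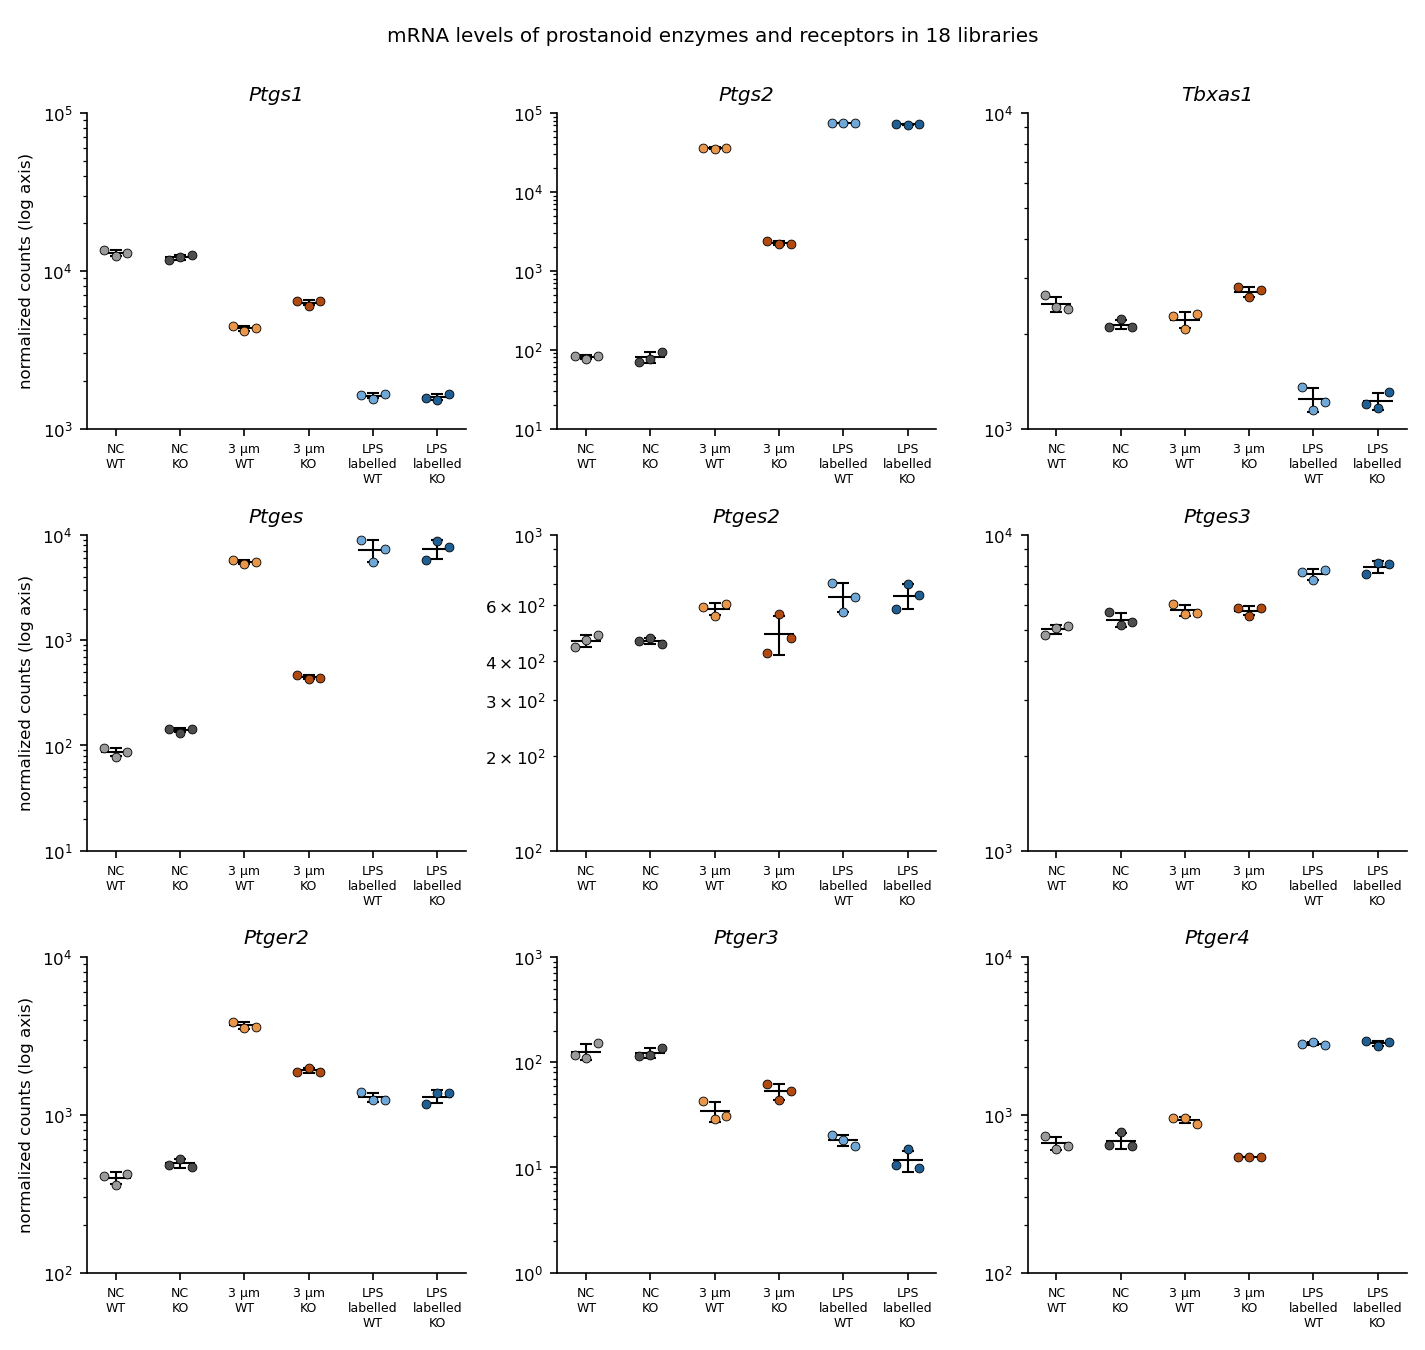
Normalized counts of 9 genes in each of 18 libraries (points; log axis), with the group mean and SD (bars; n = 3), for nonconfined (NC) cells, cells confined at 3 µm and LPS libraries by their labelled genotype. *Ptgs2* was between 70.5 and 95.1 in all 6 nonconfined libraries and between 35339 and 36417 in confined cPLA_2_ WT libraries, against 2179.6 to 2387 in confined cPLA_2_ KO libraries.

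Thromboxane synthase turns the cyclooxygenase product into thromboxane A_2_, and its gene *Tbxas1* changed little with confinement. It was at 2643, 2426 and 2389 normalized counts in nonconfined cPLA_2_ WT and at 2276, 2064 and 2307 in confined cPLA_2_ WT libraries. In cPLA_2_ KO cells it was at 2097, 2218 and 2094 in nonconfined and at 2801, 2610.4 and 2743 in confined libraries. It therefore went down slightly in cPLA_2_ WT and up in cPLA_2_ KO cells, with no overlap within either genotype. The log2 changes were -0.17 ± 0.07 (limma adjusted p 0.0374) and 0.35 ± 0.07 (adjusted p 1.90e-04), and their difference was 0.51 ± 0.09 (adjusted p 2.44e-04). The decrease in cPLA_2_ WT cells was not called without replicate 1 of nonconfined cPLA_2_ WT or without replicate 2 of confined cPLA_2_ WT (-0.12 each), nor with TMM scaling (-0.14), edgeR (-0.14) or no filter (-0.17). With the same total per library it was larger, at -0.39, and was called. Nonconfined cPLA_2_ KO cells held less *Tbxas1* than nonconfined cPLA_2_ WT cells (-0.22 ± 0.07, adjusted p 0.0433), a call lost with no filter (-0.22) and in 5 of 6 fits that left out 1 library. Those were the fits without cPLA_2_ WT replicate 1 (-0.17), 2 (-0.23) or 3 (-0.25) and without cPLA_2_ KO replicate 1 or 3 (-0.20 each). LPS libraries had lower levels, at 1146 to 1359 where labelled cPLA_2_ WT (-1.01 ± 0.07, adjusted p 1.47e-11) and at 1164 to 1304 where labelled cPLA_2_ KO (-0.81 ± 0.07, adjusted p 5.83e-10), and the changes were -1.52 and -1.29 with the same total per library.

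Among the PGE synthases, *Ptges* encodes the inducible microsomal enzyme that is usually coupled to *Ptgs2*. Its normalized counts were 93.7, 78.4 and 87.5 in nonconfined cPLA_2_ WT and 5788, 5302 and 5489 in confined cPLA_2_ WT libraries. The corresponding cPLA_2_ KO values were 145, 132 and 144 in nonconfined and 472, 432 and 440.2 in confined libraries. These 4 groups did not overlap, with nonconfined cPLA_2_ WT the lowest and confined cPLA_2_ WT the highest. Confinement went with a 63.9-fold higher mean in cPLA_2_ WT (5.98 ± 0.13, limma adjusted p 3.04e-19) and a 3.19-fold higher mean in cPLA_2_ KO cells (1.67 ± 0.13, adjusted p 1.74e-09). The interaction of -4.32 ± 0.19 (adjusted p 9.57e-14) was of about the size of that of *Ptgs2*. Confined cPLA_2_ KO cells had a 12.3-fold lower mean than confined cPLA_2_ WT cells (-3.62 ± 0.13, adjusted p 2.32e-15). Nonconfined cPLA_2_ KO cells had a 1.62-fold higher mean than nonconfined cPLA_2_ WT cells (0.69 ± 0.13, adjusted p 0.00258), which edgeR did not call (0.70). LPS libraries ranged widely, at 8887, 5493 and 7407 where labelled cPLA_2_ WT and at 5845, 8768 and 7696 where labelled cPLA_2_ KO. Both labels overlapped, and within each label the library with the most *Ddx3y* also had the most *Ptges* and the one with the least had the least. *Hpgds* followed the same order, at 1734, 1182 and 1485 where labelled cPLA_2_ WT and at 1228, 1770.1 and 1592 where labelled cPLA_2_ KO. The same order held for *Ptges2*, *Ptgir*, *Ptgr1*, *Cbr1* and *Abcc4*. It held for the summed eosinophil markers (43274, 25238 and 34349, and 25084, 43088 and 35055) and, with smaller differences, for those of DCs (480219, 411148 and 440236, and 416648, 473138 and 452699) and neutrophils (309436, 291364 and 293045, and 277910, 313058 and 295262). The summed platelet markers, led by *Ppbp*, also followed it (6432, 4063 and 5271, and 4204, 6715 and 5562). The order did not hold for the summed macrophage markers (116079, 124257 and 114226, and 118367, 111223 and 116290) or for those of mast cells (6963, 6719 and 6799, and 6539, 7142 and 7187). Nor did it hold for those of T and B cells (99.3, 104 and 103, and 70.0, 93.8 and 131). The remaining prostanoid genes tested, with *Ptgs1*, *Ptgs2*, *Ptges3*, *Tbxas1*, *Ptger2*, *Ptger3* and *Ptger4* among them, did not follow it in both labels. The normalized totals of these libraries did follow the order. How many of all tested genes follow it was not counted. The part of the donors or of these cell types in *Ptges* was not tested. Both LPS groups were above their nonconfined counterparts (6.35 ± 0.13, adjusted p 4.34e-20, and 5.70 ± 0.13, adjusted p 2.82e-19). The difference between these changes was -0.65 ± 0.19 (adjusted p 0.113), and it was called without replicate 2 labelled LPS cPLA_2_ WT (-0.84) or without replicate 2 labelled LPS cPLA_2_ KO (-0.78).

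The other PGE synthase genes varied less. *Ptges2*, which encodes a second membrane-associated enzyme, ranged from 424 to 706 normalized counts over all 18 libraries, and *Ptges3*, which encodes a cytosolic enzyme that is also the Hsp90 cochaperone p23, ranged from 4838 to 8179. With confinement, *Ptges2* changed by 0.33 ± 0.10 (limma adjusted p 0.00609) in cPLA_2_ WT and by 0.06 ± 0.10 (adjusted p 0.630) in cPLA_2_ KO cells, with an interaction of -0.27 ± 0.14 (adjusted p 0.167). When all libraries were given the same total, the cPLA_2_ WT change of *Ptges2* was 0.11 and was not called. The change of *Ptges3* was 0.20 ± 0.05 (adjusted p 0.00141) in cPLA_2_ WT cells, but it flipped to -0.02 with the same total per library. In cPLA_2_ KO cells *Ptges3* changed by 0.09 ± 0.05 (adjusted p 0.128), which was called without nonconfined cPLA_2_ KO replicate 1 (0.13). The interaction of *Ptges3* was -0.11 ± 0.07 (adjusted p 0.286), and flipped to 0.08 with the same total. Neither gene thus shared the large changes of *Ptges*, and the sign of their small changes depended in part on the scaling. After LPS, *Ptges2* was higher by 0.45 ± 0.10 and 0.47 ± 0.10 in the labelled cPLA_2_ WT and cPLA_2_ KO libraries, which flipped to -0.06 and -0.01 with the same total per library. *Ptges3* was higher by 0.58 ± 0.05 and 0.56 ± 0.05, and by 0.07 and 0.08 with the same total, when it was not called. Confined cPLA_2_ KO cells had less *Ptges2* than confined cPLA_2_ WT cells (-0.27 ± 0.10, adjusted p 0.0306), although the groups overlapped. That call was lost with the same total (-0.12), without confined cPLA_2_ WT replicate 1 (-0.26) or 3 (-0.25) and without confined cPLA_2_ KO replicate 1 (-0.18) or 3 (-0.26). For the interaction, *Ptges2* was called without confined cPLA_2_ KO replicate 2 (-0.38). *Ptges3* did not differ detectably between confined genotypes (-0.01 ± 0.05, adjusted p 0.943), but with the same total per library it was 0.15 higher in cPLA_2_ KO cells, and was called.

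*Ptger2* encodes EP_2_, a PGE_2_ receptor that raises cyclic AMP. Its normalized counts in nonconfined libraries were 412, 361 and 424 in cPLA_2_ WT and 484, 525 and 467 in cPLA_2_ KO cells. In confined libraries they were 3896, 3567 and 3604 in cPLA_2_ WT and 1874, 1994 and 1863 in cPLA_2_ KO cells. Confined libraries were thus above nonconfined ones in both genotypes, and the order of the genotypes was reversed between the treatments, with no overlap. The mean rose 9.25-fold in cPLA_2_ WT (3.21 ± 0.08, limma adjusted p 1.02e-18) and 3.88-fold in cPLA_2_ KO cells (1.96 ± 0.08, adjusted p 1.99e-14). The interaction was -1.25 ± 0.11 (adjusted p 1.07e-08), smaller in size than those of *Ptgs2* and *Ptges*. Confined cPLA_2_ KO cells were 1.93-fold below confined cPLA_2_ WT cells (-0.95 ± 0.08, adjusted p 1.99e-09). In nonconfined cells the difference was 0.30 ± 0.08 (adjusted p 0.0178), a call lost without cPLA_2_ WT replicate 2 (0.23) or cPLA_2_ KO replicate 2 (0.26). The LPS libraries, at 1393, 1243 and 1235 where labelled cPLA_2_ WT and at 1164, 1368 and 1384 where labelled cPLA_2_ KO, lay below all confined libraries and above all nonconfined ones. Their changes against nonconfined cells were 1.69 ± 0.08 (adjusted p 3.05e-14) and 1.40 ± 0.08 (adjusted p 8.13e-13), or 1.18 and 0.92 with the same total per library.

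*Ptger4* encodes EP_4_, the other receptor of the family that raises cyclic AMP, and its pattern was different. Nonconfined libraries held 732, 611 and 636 normalized counts in cPLA_2_ WT and 643, 779 and 639 in cPLA_2_ KO cells. Confined libraries held 958, 952 and 877 in cPLA_2_ WT and 539.5, 539.6 and 539.5 in cPLA_2_ KO cells. Nonconfined genotypes overlapped, whereas every confined cPLA_2_ WT library was above them and every confined cPLA_2_ KO library below them. *Ptger4* rose 1.41-fold with confinement in cPLA_2_ WT (0.50 ± 0.08, limma adjusted p 8.65e-06) and was 1.27-fold lower in confined cPLA_2_ KO cells (-0.34 ± 0.08, adjusted p 8.35e-04). With the same total per library these changes were 0.27 and -0.38, and both were called. The interaction was -0.84 ± 0.11 (adjusted p 2.93e-06). Confined cPLA_2_ KO cells were 1.72-fold below confined cPLA_2_ WT cells (-0.78 ± 0.08, adjusted p 2.84e-08). LPS libraries had the highest levels, at 2814, 2884 and 2775 where labelled cPLA_2_ WT and at 2938, 2732 and 2879.6 where labelled cPLA_2_ KO. Their means were 4.28-fold (2.10 ± 0.08, adjusted p 4.52e-16) and 4.15-fold (2.06 ± 0.08, adjusted p 6.60e-16) above nonconfined cells. EP_2_ and EP_4_ mRNA were therefore ranked differently by treatment, with *Ptger2* highest in confined and *Ptger4* highest in LPS libraries.

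*Ptger3* encodes EP_3_, which mainly lowers cyclic AMP, and its mRNA was low in all conditions. Nonconfined libraries held 111 to 151 normalized counts in cPLA_2_ WT cells, with a mean of 126 ± 21.9 (SD, n = 3), and a mean of 123 ± 13.0 in cPLA_2_ KO cells. Confined libraries held 42.5, 29.2 and 30.8 in cPLA_2_ WT and 62.6, 43.7 and 52.9 in cPLA_2_ KO cells. The gene decreased with confinement in both genotypes, by -1.86 ± 0.24 (limma adjusted p 1.05e-06) and -1.21 ± 0.24 (adjusted p 3.36e-04), and the interaction of 0.66 ± 0.34 was not called (adjusted p 0.177). The confined genotypes differed by 0.63 ± 0.24 (adjusted p 0.0463). This call was lost with no filter (0.63), TMM scaling (0.60), the compared conditions alone (0.63), without confined cPLA_2_ WT replicate 2 (0.52) or 3 (0.56) and without confined cPLA_2_ KO replicate 1 (0.50) or 3 (0.62). LPS libraries were lowest, at 15.9 to 20.2 normalized counts where labelled cPLA_2_ WT and at 9.87 to 14.9 where labelled cPLA_2_ KO. Against nonconfined cells these were changes of -2.73 ± 0.24 (adjusted p 2.21e-09) and -3.29 ± 0.24 (adjusted p 1.04e-10).

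*Hpgd*, which encodes the enzyme that begins PGE_2_ breakdown, was close to absent. Nonconfined libraries held 4, 4 and 2 reads in cPLA_2_ WT and 8, 10 and 6 reads in cPLA_2_ KO cells. Confined cPLA_2_ WT libraries held 0 reads each, and confined cPLA_2_ KO libraries held 2, 0 and 0. Libraries labelled LPS cPLA_2_ WT held 0 each, and those labelled LPS cPLA_2_ KO held 0, 0 and 1. A difference between the genotypes in confined or LPS libraries was not detectable at this depth, as a count of 0 allows up to 3 reads in a library. With no filter, limma called *Hpgd* lower with confinement and with LPS in both genotypes, and the interactions and the differences between genotypes were not called.

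Over the comparisons, the number of these genes called was set beside the share of all tested genes called in the same direction. With confinement in cPLA_2_ WT cells 6 of 9 tested genes were called higher and 3 lower, against 28.2% and 28.4% of all genes. In cPLA_2_ KO cells 4 were called higher and 3 lower, against 22.8% and 23.4%. The interaction was called positive for 2 genes and negative for 4, against 10.2% and 15.6%. Over the 9 genes the median log2 changes in cPLA_2_ WT and cPLA_2_ KO cells were 0.33 and 0.09, and the median interaction was -0.27. Over all genes tested these medians were -0.01, 0.01 and 0.05. With the same total per library, the all-gene medians moved to -0.23 in cPLA_2_ WT cells and 0.24 for the interaction, and calls over all genes went from 5038 higher and 5075 lower to 3578 higher and 7380 lower in cPLA_2_ WT cells. For the interaction they went from 1823 positive and 2796 negative to 4741 and 1962. Between nonconfined genotypes, 2 genes were higher and 1 lower in cPLA_2_ KO cells, against 4.78% and 4.11% of all genes. That share depended on single libraries, since the 854 genes higher and 734 lower became 611 and 382, 492 and 350, and 510 and 336 without cPLA_2_ WT replicate 1, 2 and 3. They became 475 and 281, 973 and 1124, and 515 and 349 without cPLA_2_ KO replicate 1, 2 and 3. Between confined genotypes 3 were higher and 5 lower, against 18.8% and 20.6%, with a median of -0.27 over the 9 genes and 0.04 over all genes, which moved to 0.19 with the same total. Calls over all genes between confined genotypes then went from 3356 higher and 3682 lower to 6001 and 2604.

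For LPS, 6 genes were called higher and 3 lower in the libraries labelled cPLA_2_ WT, against 33.4% and 29.4% of all genes, and in the same directions 6 and 3 in those labelled cPLA_2_ KO, against 33.4% and 30.1%. The all-gene medians of 0.03 and 0.02 moved to -0.47 and -0.44 with the same total per library. Calls went from 5965 higher and 5258 lower to 3182 and 9294 for the labelled cPLA_2_ WT libraries, and from 5972 and 5384 to 3271 and 9190 for the labelled cPLA_2_ KO libraries. These comparisons share their nonconfined libraries with those of confinement. Between the LPS genotype labels, limma called 0 of the 9 genes and 0% of all genes. At an unadjusted p under 0.05 there were 890 genes (4.98%), of which 1 was among the 9 (*Ptger3*, -0.59 ± 0.24), and edgeR and DESeq2 each called 0 genes. With limma, 1 gene was called between the labels with no filter, 3 without replicate 2 labelled cPLA_2_ WT and 1 without replicate 2 labelled cPLA_2_ KO, none of them among the 9. For the difference between the LPS changes of both labels, limma called 0 of the 9 and 1.28% of all genes, 228 in number, with 56 positive and 172 negative. These counts became 179 and 348 without replicate 2 labelled LPS cPLA_2_ WT, 147 and 312 without replicate 2 labelled LPS cPLA_2_ KO, and 160 and 206 without nonconfined cPLA_2_ KO replicate 2. With the compared conditions alone they became 24 and 83. They became 35 and 103 without replicate 1 labelled LPS cPLA_2_ WT, 34 and 116 without its replicate 3, 35 and 117, 31 and 107, or 29 and 107 without nonconfined cPLA_2_ WT replicate 1, 2 or 3, and 31 and 97 without nonconfined cPLA_2_ KO replicate 3. Unadjusted, 2232 genes (12.5%) passed, 3 of them among the 9 (*Ptges*, *Ptger2* and *Tbxas1*), and edgeR called 264 and DESeq2 454 genes, with none of the 9 called by either. With the LPS libraries pooled over their labels, an alternative chosen after the data were seen, all 9 genes were called against either nonconfined genotype. The pooled change was 9.80 and 9.82 for *Ptgs2*, 6.37 and 5.68 for *Ptges*, -3.02 and -2.93 for *Ptgs1*, 1.70 and 1.40 for *Ptger2*, -3.02 and -2.99 for *Ptger3*, 2.11 and 2.05 for *Ptger4*, and -1.01 and -0.80 for *Tbxas1* against cPLA_2_ WT and cPLA_2_ KO cells, respectively.

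**Figure D2:**
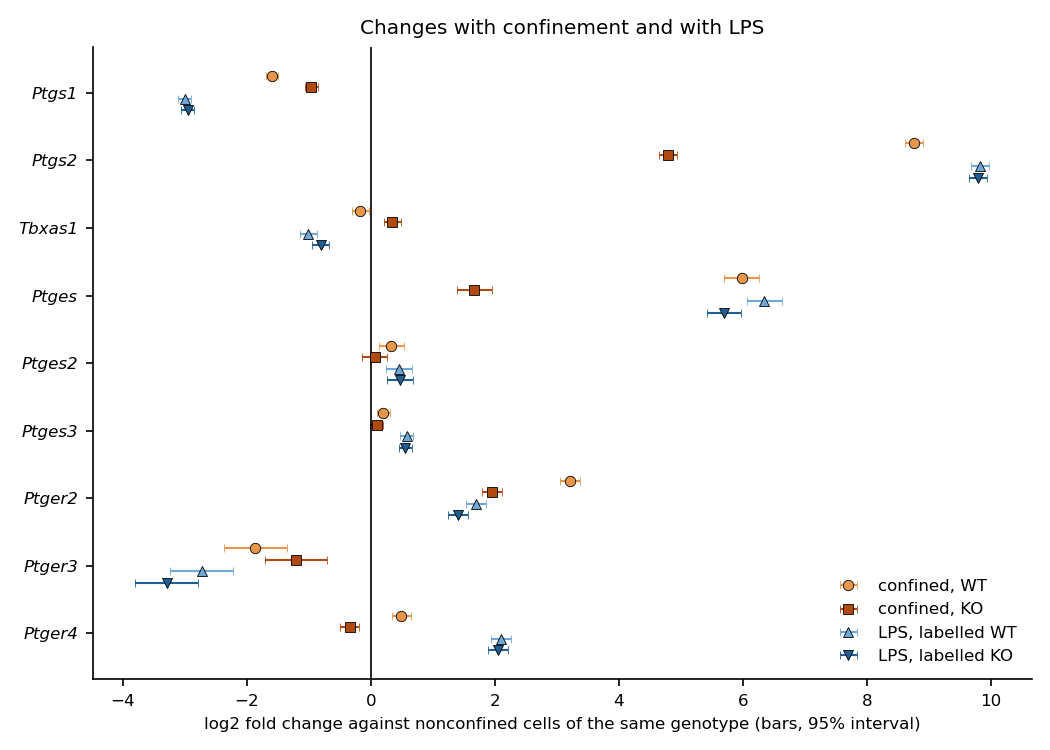
Log2 fold changes of 9 genes against nonconfined cells of the same genotype with 95% intervals from limma, for confined cells of each genotype and for LPS libraries by their labelled genotype. *Ptgs2* and *Ptges* lie far to the right with LPS in both labels and with confinement in cPLA_2_ WT cells, at 8.76 and 5.98, and less so in confined cPLA_2_ KO cells, at 4.79 and 1.67; with the same total per library, the small positive values of *Ptges2* with LPS and of *Ptges3* in confined cPLA_2_ WT cells flip sign.

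Confinement and LPS were also compared directly. Relative to the libraries labelled LPS cPLA_2_ WT, 4 genes were higher in confined cPLA_2_ WT cells and 4 were lower, against 21.6% and 27.2% of all genes. *Ptger2* was 2.86-fold higher in confined cells (1.52 ± 0.08, limma adjusted p 8.11e-13), *Ptgs1* 2.66-fold higher (1.41 ± 0.05, adjusted p 1.41e-15), and *Tbxas1* and *Ptger3* higher by 0.84 ± 0.07 and 0.87 ± 0.24. *Ptgs2* was 2.09-fold lower in confined cells (-1.06 ± 0.07, adjusted p 7.38e-11) and *Ptger4* 3.04-fold lower (-1.60 ± 0.08, adjusted p 2.07e-13). *Ptges* was close, at -0.37 ± 0.13 (adjusted p 0.0288) with overlapping groups. Its call was lost with no filter (-0.37), the same total (-0.08), TMM scaling (-0.29) and DESeq2 (-0.36), and without confined replicate 2 (-0.34) or 3 (-0.36) or labelled LPS replicate 1 (-0.21) or 3 (-0.34). *Ptges3* was lower by -0.38 ± 0.05 in confined cells, and was not called with the same total (-0.09). Relative to the libraries labelled LPS cPLA_2_ KO, 4 genes were higher in confined cPLA_2_ KO cells and 5 lower, against 28.1% and 30.6% of all genes. With the same total per library 4 were higher and 3 lower. In confined cPLA_2_ KO cells *Ptgs2* was 32.0-fold (-5.00 ± 0.07, adjusted p 5.49e-23), *Ptges* 16.6-fold (-4.03 ± 0.13, adjusted p 1.37e-16) and *Ptger4* 5.28-fold (-2.40 ± 0.08, adjusted p 4.84e-17) below the level in these LPS libraries. *Ptger2* was still 1.46-fold above it (0.55 ± 0.08, adjusted p 2.77e-06), and by 1.00 with the same total per library. *Ptges2* was lower in confined cPLA_2_ KO cells (-0.41 ± 0.10, adjusted p 0.00122), which flipped to 0.04 with the same total, and *Ptges3* was lower by -0.46 ± 0.05, which was not called with the same total (-0.02). With the LPS labels pooled, *Ptgs2* was -1.03 and *Ptger2* 1.51 in confined cPLA_2_ WT cells and -5.03 and 0.56 in confined cPLA_2_ KO cells, relative to LPS. With the same total per library the all-gene medians of these comparisons moved from -0.02 to 0.26 and from 0.02 to 0.46. Calls went from 3864 higher and 4870 lower to 7353 and 2455 for confined cPLA_2_ WT cells. For confined cPLA_2_ KO cells they went from 5026 and 5475 to 9611 and 2814.

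Levels were compared between genes as normalized counts per kilobase of annotated exons. In nonconfined cPLA_2_ WT cells the order was led by *Ptgs1* at 3344 ± 128 (SD, n = 3) per kb and *Ptges3* at 2254 per kb, with *Tbxas1* next at 197 per kb. *Ptger3*, *Ptges* and *Ptgs2* were at 20.0, 19.6 and 16.0 per kb, of which *Ptger3* and *Ptges* did not differ beyond their spread, and *Hpgd* was last at 0.909 per kb. In confined cPLA_2_ WT cells *Ptgs2* led at 7026 ± 112 per kb, ahead of *Ptges3* at 2596, *Ptges* at 1255, *Ptgs1* at 1109.8 and *Ptger2* at 710.4 per kb. In confined cPLA_2_ KO cells *Ptges3* at 2585 and *Ptgs1* at 1619.6 per kb led, and *Ptgs2* was at 440.3 per kb, *Ptger2* at 368 and *Ptges* at 102. The libraries labelled LPS cPLA_2_ WT had *Ptgs2* at 14686 and *Ptges3* at 3376 per kb, and *Ptger4* at 425 and *Ptgs1* at 417 per kb did not differ beyond their spread. Some of this order depends on the length used. *Tbxas1* moves most, since its annotated exons span 12631 bases in all and 2020 in the canonical transcript. On canonical lengths it was at 1097 per kb in confined cPLA_2_ WT cells, above *Ptger2* at 1001 per kb, and *Ptgs1* at 1505 per kb was level with *Ptges* at 1496 per kb. In the libraries labelled LPS cPLA_2_ WT *Ptger4* was then at 853, *Tbxas1* at 614 and *Ptgs1* at 565 per kb. In confined cPLA_2_ KO cells *Ptger2* at 519 per kb was above *Ptgs2* at 475 per kb. *Tbxas1* was there above both, at 1346 per kb, against 215 per kb on all annotated exons.

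On the same scale of all annotated exons, *Ptgs2* made up 0.476% ± 0.0136 (SD, n = 3) of cyclooxygenase mRNA in nonconfined cPLA_2_ WT cells and 0.499% ± 0.0596 in nonconfined cPLA_2_ KO cells. Its share was 86.4% ± 0.216 in confined cPLA_2_ WT cells and 21.4% ± 0.770 in confined cPLA_2_ KO cells. It was 97.2% ± 0.0922 and 97.2% ± 0.116 in libraries labelled LPS cPLA_2_ WT and LPS cPLA_2_ KO. Confined cPLA_2_ KO cells thus remained mostly *Ptgs1*, and confined cPLA_2_ WT cells were mostly *Ptgs2*. Of PGE synthase mRNA, *Ptges* was 31.9% ± 0.256 in confined cPLA_2_ WT cells and 3.69% ± 0.119 in confined cPLA_2_ KO cells, from 0.841% and 1.26% in nonconfined cells. Among the PGE_2_ receptors, with *Ptger1* included, *Ptger2* was 82.1% ± 0.853 in confined cPLA_2_ WT cells and 79.2% ± 0.932 in confined cPLA_2_ KO cells, against 38.0% and 41.5% in nonconfined cells. In the libraries labelled LPS cPLA_2_ WT it was 36.4% ± 1.70, and *Ptger4* was 62.2% ± 1.63. The shares of *Ptger2* and *Ptger4* (16.1% and 17.5%) were therefore close in confined cPLA_2_ WT and cPLA_2_ KO cells, although neither overlapped between the genotypes. That of *Ptger3* was 0.623% and 1.82%, also with no overlap. The make-up of the synthesis enzymes was far apart.

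**Figure D3:**
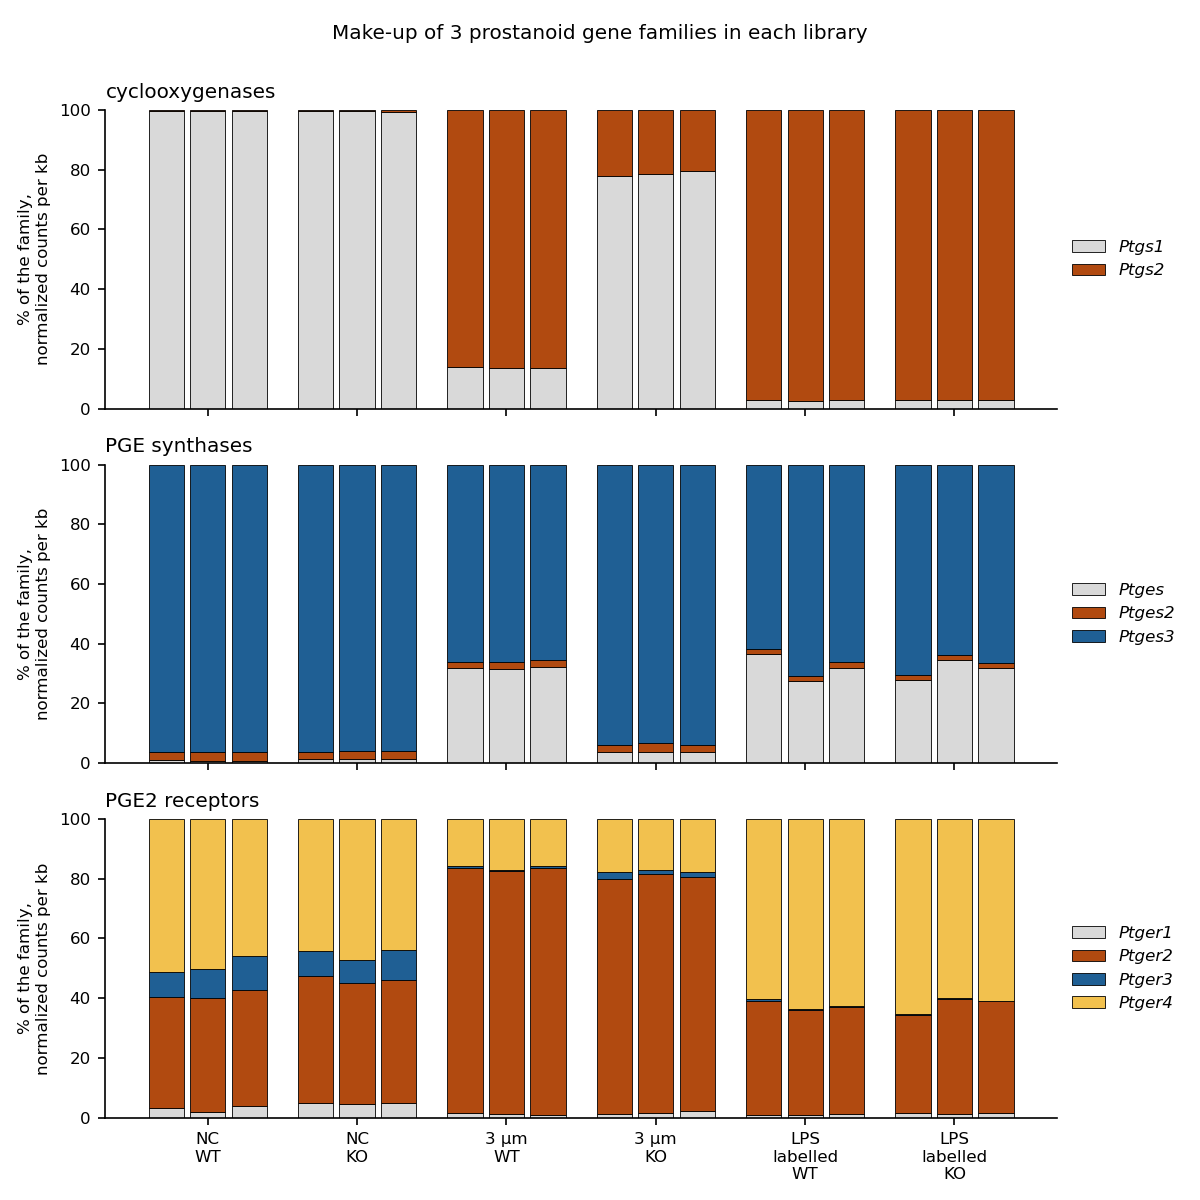
Share of each gene in the summed normalized counts per kilobase of annotated exons of its family, one bar for each of 18 libraries, for cyclooxygenases, PGE synthases and PGE_2_ receptors. *Ptgs2* rises from under 1% in nonconfined cells to 86.4% in confined cPLA_2_ WT cells and 21.4% in confined cPLA_2_ KO cells, while *Ptger2* is near 80% of receptors in both.

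Further genes of prostanoid synthesis, transport, reception and breakdown were listed for their roles, 17 in all, of which 10 were tested. *Ptgds*, *Ptgis*, *Ptgdr*, *Ptgdr2*, *Ptgfr*, *Tbxa2r* and *Slco2a1* did not pass the filter, so the receptor for thromboxane was close to absent. With confinement, 5 were called higher and 4 lower in cPLA_2_ WT cells (28.2% and 28.4% of all genes), and 3 higher and 3 lower in cPLA_2_ KO cells (22.8% and 23.4%). *Hpgds*, which encodes the hematopoietic prostaglandin D synthase, fell from a mean of 3968 to 1852 normalized counts in cPLA_2_ WT (-1.10 ± 0.11, limma adjusted p 2.06e-08) and from 4951 to 2425 in cPLA_2_ KO cells (-1.03 ± 0.11, adjusted p 1.12e-07). *Ptgr1*, which encodes a reductase that acts on the product of *Hpgd*, rose from 1199.8 to 4067 (1.76 ± 0.11, adjusted p 1.99e-11) and from 1197 to 5200.3 (2.12 ± 0.11, adjusted p 2.65e-12). *Ptgir*, which encodes the prostacyclin receptor, rose by 0.71 ± 0.09 and 1.03 ± 0.09. These 3 genes changed in the same direction in both genotypes, and their interactions were not called (adjusted p 0.797, 0.109 and 0.0565). The interaction was called for 3 of the 10, positive for 1 and negative for 2 (10.2% and 15.6% of all genes). *Abcc4*, which encodes an exporter of PGE_2_ and cyclic nucleotides, rose in cPLA_2_ WT (0.44 ± 0.07) and fell in cPLA_2_ KO cells (-0.47 ± 0.07), with an interaction of -0.90 ± 0.10 (adjusted p 4.16e-07), as *Ptger4* did. The others were *Ptger1*, which encodes EP_1_ and had at most 70.5 normalized counts (-1.32 ± 0.42, adjusted p 0.0245), and *Ptgr3*, which encodes a further prostaglandin reductase (0.33 ± 0.09, adjusted p 0.0111). Between nonconfined genotypes 1 was called (*Prxl2b*, 0.68 ± 0.19 in cPLA_2_ KO cells; 4.78% of all genes were higher and 4.11% lower), and between confined genotypes 7 were higher and 1 lower in cPLA_2_ KO cells (18.8% and 20.6%). *Akr1b3*, *Cbr1* and *Ptgr2*, which encode enzymes of prostaglandin conversion, changed with confinement in cPLA_2_ WT cells by -0.40, -0.31 and -0.41. LPS went with 3 higher and 6 lower under each label (33.4% and 29.4% of all genes for cPLA_2_ WT, and 33.4% and 30.1% for cPLA_2_ KO). Among those higher, *Ptgir* changed by 0.38 and 0.34 and *Ptgr3* by 0.35 and 0.44 under these labels. With the same total per library the all-gene medians moved to -0.47 and -0.44, and these genes were not recomputed. For the difference between the labels' changes, 1 gene (*Prxl2b*, -1.13 ± 0.27) was called (1.28% of all genes). Against LPS libraries, 8 of the 10 were called higher in confined cPLA_2_ WT cells and the other 2 were not called (21.6% of all genes were higher and 27.2% lower). In confined cPLA_2_ KO cells 7 were called higher and 3 were not called (28.1% and 30.6%). Between the labels limma, edgeR and DESeq2 called 0 of the 17875 genes tested.

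By condition means of log2(normalized count + 1), centred for each gene, the genes nearest in pattern were found among 10422 tested genes by the root mean square difference over 6 conditions. *Ptgs2* was nearest to *Il1b* (0.30), *Ereg* (0.48) and *Il1a* (0.60), where its own spread about its mean was 4.26. *Ptges*, with a spread of 2.71, was nearest to *Nfkbiz* (0.24), *Armcx4* (0.41) and *Gm6093* (0.46). *Ptger2* was nearest to *Cd207* (0.19), *Cgref1* (0.20) and *Ifrd1* (0.21), and *Ptger4* to *Gpr183* (0.09) and *Irf8* (0.10). None of the inducible genes was thus among the 3 nearest to another. *Ptgs1* was nearest to *Inka2* (0.06), *Abhd15* (0.12) and *Daglb* (0.13), *Ptger3* to *Ptgs1* (0.20), *Nanos1* (0.21) and *Daglb* (0.21), and *Tbxas1* to *Wdr7* (0.05), *Dnase2a* (0.06) and *Arrdc3* (0.06). The nearest patterns of *Ptges2* were those of *Nrf1* (0.02), *Mark2* (0.02) and *Ensa* (0.03), and of *Ptges3* those of *Rab9* (0.02), *Arpc5* (0.02) and *Rhoa* (0.03), which have little spread to compare.

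Markers of the labelled and of other cell types were summed in each library. The 6 DC markers, of which *Cd74* was the most abundant, were all found and summed on average to 334813 and 395954 normalized counts in nonconfined and to 293996 and 281615 in confined cells of the cPLA_2_ WT and cPLA_2_ KO genotypes, respectively. They did not move together, since *Cd86* changed with confinement by 1.39 in cPLA_2_ WT and 0.02 in cPLA_2_ KO cells. The others were lower in both genotypes, most so *Flt3* (-1.53 and -2.17). The 8 macrophage markers had sums of 16796 to 17269 in nonconfined and 142099 to 149733 in confined cPLA_2_ WT libraries, and of 19193 to 19986 and 28281 to 29905 in the corresponding cPLA_2_ KO libraries. In the libraries labelled LPS cPLA_2_ WT they summed to 118188 and in those labelled LPS cPLA_2_ KO to 115293 on average. Most of the sum in confined and LPS libraries was *Cd14*, which also responds to activation, at 129184 to 136116 in confined cPLA_2_ WT and at a mean of 16429 in confined cPLA_2_ KO cells. The 8 did not move together. With confinement in cPLA_2_ WT cells *Cd14* (6.11) and *Marco* (1.82) rose, *Fcgr1* changed by 0.06, and *Adgre1* (-0.15), *Mertk* (-0.55), *C1qa* (-0.88), *C1qb* (-0.59) and *C1qc* (-0.77) were lower. The 6 eosinophil markers (most abundant, *Prg2*) averaged 30343 and 71549 in nonconfined and 8204 and 19816 in confined cPLA_2_ WT and cPLA_2_ KO cells, and 25084 to 43274 over the LPS libraries. The 9 neutrophil markers (*S100a9*) averaged 242992 and 354184 in nonconfined and 148834 and 337202 in confined cells, and the 8 mast cell and basophil markers (*Cpa3*) 7068 and 10356 in nonconfined and 3531 and 5574 in confined cells. Not all of these markers fell with confinement. In cPLA_2_ WT and cPLA_2_ KO cells, respectively, *Ccr3* changed by 1.14 and -1.92, *Siglecf* by 0.04 and 0.23 and *Kit* by 0.37 and 0.80. In cPLA_2_ KO cells, *Ngp*, *S100a8* and *S100a9* changed by 0.10, 0.07 and 0.07. The other eosinophil, neutrophil and mast cell markers were lower in both genotypes. Platelet and megakaryocyte markers (6 genes, *Ppbp*) averaged 1986 and 2464 in nonconfined and 6339 and 7941 in confined cells. That rise was mostly *Ppbp*, from 106 to 4223 in cPLA_2_ WT and from 167 to 5631 in cPLA_2_ KO cells, with *Pf4* also higher (1.33 and 1.15), whereas *Itga2b* was lower in both (-0.63 and -1.32) and *Gp1bb* changed by -0.04 and 0.57. T and B cell markers (4 genes, *Cd3d*) averaged 174 and 204 in nonconfined and 75.7 and 107 in confined cells. No marker was at 0 in every library. The sums of eosinophil, neutrophil and mast cell markers, which the most abundant genes lead, were thus higher in cPLA_2_ KO than in cPLA_2_ WT cells both nonconfined and confined. Single markers went the other way, namely *Siglecf* (-0.57 nonconfined and -0.39 confined), *Elane* (-0.19) and *Prtn3* (-0.26) nonconfined, and *Ccr3* (-1.65) and *Gata2* (-0.11) confined. Only semiadherent cells were kept. By the study's methods, this step leaves out granulocytes, which do not adhere, and macrophages, which hold to the plate, both of which form in the culture. Most of the cells recovered are described there as carrying CD11c. The part of these cell types in the levels of the prostanoid genes was not tested.

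In GRCm39, *Ptgs2* (identifier GSMG0000968) lies on the plus strand at chr1:149975782-149983985, with 10 exons in its canonical transcript. The targeted gene, *Pla2g4a*, lies 138740 bases upstream on the minus strand, at chr1:149705372-149837041. The antisense transcript genes *Ptgs2os* and *Ptgs2os2* lie 65 bases upstream and 50808 bases downstream of *Ptgs2* on the minus strand, and were looked at after the values of *Ptgs2* were seen. *Ptgs2os* was at 0 to 1.86 normalized counts in nonconfined libraries, at 72.5, 109.8 and 71.1 in confined cPLA_2_ WT libraries and at 0, 2.13 and 1.82 in confined cPLA_2_ KO libraries. It was at 60.5 to 119 in the LPS libraries, so that it was close to absent in confined cPLA_2_ KO cells, in which *Ptgs2* was above 2000 normalized counts. *Ptgs2os2* was at a mean of 90.6 ± 13.9 in nonconfined and 572 ± 38.7 in confined cPLA_2_ WT cells, and at 73.5 ± 15.3 and 134 ± 2.45 in cPLA_2_ KO cells (SD, n = 3), with an interaction of -1.78 ± 0.20 (limma adjusted p 3.72e-07). The setting for strand in the authors' counting is not given in the sources used here. *Ptges* (GSMG0031759) is on the minus strand at chr2:30779483-30793314 and *Ptger2* (GSMG0015817) on the plus strand at chr14:45225568-45241277, 128735 bases from *Ptgdr*. *Ptgs1* (GSMG0029219) is at chr2:36120437-36142281, *Ptger4* (GSMG0019039) at chr15:5236142-5273671, *Ptger3* (GSMG0034922) at chr3:157272513-157350393 and *Tbxas1* (GSMG0044116) at chr6:38852337-39061518.

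**Figure D4:**
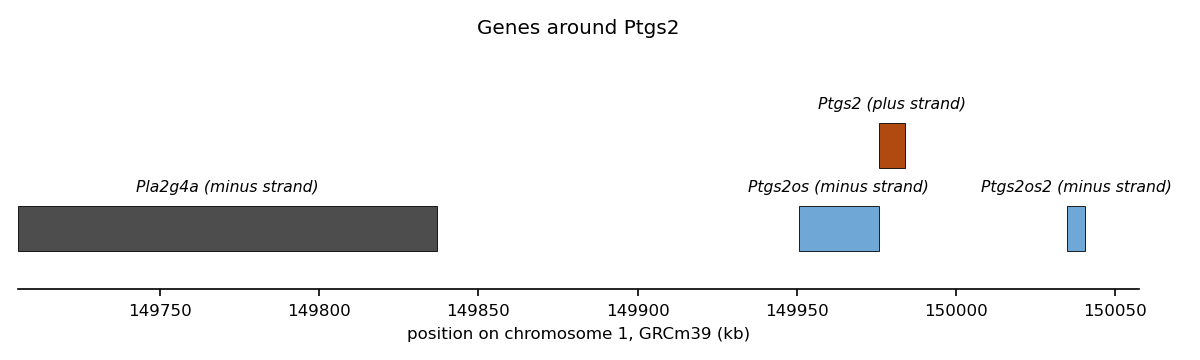
Map of chromosome 1 of GRCm39 around *Ptgs2*, to scale in kb, with each gene drawn from its start to its end and its strand given. *Ptgs2os* and *Pla2g4a* are on the other strand and point away from *Ptgs2*, with 65 and 138740 bases between them and its start.

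Of the 10 chosen genes, the 3 with the largest increases in confined cPLA_2_ WT cells rose together with confinement and differed between the genotypes. For this reason, their promoters are shown. They are the 250 bases before the transcript start in the RefSeq promoter table (build GRCm38.p6), which held all 10 genes, and each was found once in GRCm39, on the plus strand at chr1:149975532-149975781 for *Ptgs2*, on the minus strand at chr2:30793310-30793559 for *Ptges* and on the plus strand at chr14:45225318-45225567 for *Ptger2*. Capitals mark a match to TTGCNNAA, a form bound by C/EBP factors.
Ptgs2: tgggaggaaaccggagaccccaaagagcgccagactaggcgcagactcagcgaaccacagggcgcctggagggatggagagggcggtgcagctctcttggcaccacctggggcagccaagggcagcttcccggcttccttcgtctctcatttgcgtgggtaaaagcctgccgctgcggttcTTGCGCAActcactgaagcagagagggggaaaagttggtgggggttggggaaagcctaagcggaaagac
Ptges: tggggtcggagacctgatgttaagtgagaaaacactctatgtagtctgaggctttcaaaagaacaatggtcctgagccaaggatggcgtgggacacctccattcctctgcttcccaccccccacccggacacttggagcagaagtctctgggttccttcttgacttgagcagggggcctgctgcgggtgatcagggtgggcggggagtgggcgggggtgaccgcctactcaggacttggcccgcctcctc
Ptger2: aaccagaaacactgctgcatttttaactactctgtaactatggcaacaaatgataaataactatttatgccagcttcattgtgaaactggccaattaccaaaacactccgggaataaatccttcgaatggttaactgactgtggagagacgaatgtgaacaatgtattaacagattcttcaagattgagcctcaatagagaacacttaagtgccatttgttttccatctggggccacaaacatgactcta
Their GC content was 61.6%, 59.6% and 38.0%, where the median over 32851 promoters was 52.4%, and 10% of promoters were at or under 38.8%. *Ptger2* thus has a promoter of much lower GC content than the others. Both strands of windows that run from 250 bases before to 50 bases after the start were searched for 6 motifs. These were GGNNNTTCC (an NF-kB form, in 18.5% of all promoters), TGACGTCA (the cyclic AMP response element, 1.79%), its part TGACG (20.8%), TGANTCA (an AP-1 form, 7.81%), TTGCNNAA (10.8%) and CACGTG (the E-box, 7.15%), of which TGACG lies within TGACGTCA. In the *Ptgs2* window TTGCGCAA was found from position -69 to -62 relative to the start, and TGACG (positions 14 to 18, minus strand) and CACGTG (17 to 22), which overlap, after the start. The *Ptges* window held none of the 6 motifs, and the *Ptger2* window held TTGCTTAA after the start, at positions 40 to 47. The 3 genes thus shared no match upstream. Of the other windows, *Ptges2* held CACGTG, *Tbxas1* TGATTCA and *Ptges3* TGACG, and those of *Ptgs1*, *Ptger3*, *Ptger4* and *Hpgd* held none. The *Tbxas1* window, at chr6:38895670-38895969, lies inside the span given above for that gene and not at its first base. A match to these letters does not show that a factor binds there, and a window without one says only that the letters are not in it.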

How the data were processed

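The genes and lists were chosen with earlier results of these data known. The 18 libraries were grouped by their titles and treatment labels. The authors mapped reads with STAR (2.7.5a) to GRCm39, counted them on genes with featureCounts (1.5.0) and deposited a signal per gene and library, which is the count scaled by the library's DESeq2 size factor, in R 3.5.3; the DESeq2 version is not given in the sources used here. Multiplied by its size factor, 100.0% of values came within 0.01 of a whole number, so that reads could be recovered for the count tests. Depth was 33027230 to 61300021 reads on genes per library, with a median of 40950397. Of 62197 genes, the 17875 that reached 10 normalized counts in 3 or more libraries were tested with limma 3.58.1 in R 4.3.3 (lmFit, contrasts.fit, eBayes with trend) on log2(normalized count + 1), which understates the changes of genes with low counts, by the 6 condition means and with Benjamini-Hochberg adjustment over all tested genes.

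The genes named are the 10 chosen ones, *Pla2g4a*, the 17 other prostanoid genes and, for each of the 9 tested, the 3 tested genes nearest in pattern that average 100 normalized counts or more; the genes of the label check, the cell type markers and the antisense genes beside *Ptgs2* are given as values. For *Ptger4*, 1 of the 3 is not reported here. The changes of the 9 tested genes and *Pla2g4a* and the counts of called genes among the 10, but not the values of the other genes named, were recomputed with TMM scaling, with the same total per library, with pseudocounts of 0.5 or 5, with a filter at 100 or none, by DESeq2 1.42.0 and by edgeR's quasi-likelihood test (4.0.16) on recovered reads, and with the compared conditions alone, a replicate block, a limit of 1 on the absolute log2 fold change, the thresholds of the study's methods with p taken as unadjusted, leaving out each library, and LPS libraries pooled over their labels, which was chosen after the data were seen. Figures were made with matplotlib 3.10.9 in Python 3.11.15, with tables handled in pandas 2.3.3. The authors' filter against intergenic background and their pathway analyses were not repeated, and protein sequences were not used here. Time in culture, library kit and donor sex were not separated from treatment or genotype.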

Additional observations from a re-analysis of the deposited data

Results flagged for a closer look

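The 6 genes whose change with confinement differed between the genotypes by limma's test of the interaction (log2 change in cPLA_2_ KO minus that in cPLA_2_ WT cells) are listed with their values. For *Ptgs2* it was -3.97, for *Ptges* -4.32, for *Ptger2* -1.25 and for *Ptger4* -0.84. For *Ptgs1* it was 0.63 and for *Tbxas1* 0.51. When each library was left out in turn, these ran from -4.06 to -3.85, from -4.37 to -4.25, from -1.30 to -1.18, from -0.91 to -0.74, from 0.61 to 0.67 and from 0.46 to 0.54, in the same order. The donors of cPLA_2_ KO libraries differ from those of cPLA_2_ WT libraries in Y-linked reads as well as in genotype, and the part of either was not tested.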

How the results depend on the processing

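Of 214 counts of called genes under alternatives, 200 stayed within 1.5 times the count reported. With an absolute log2 fold change above 1, a limit that the study also uses, counts were fewer by construction. There were 4 for confined cPLA_2_ WT cells against the libraries labelled LPS cPLA_2_ WT. The counts were 5 for confinement in cPLA_2_ WT, 4 in cPLA_2_ KO, 3 for the interaction, 0 between nonconfined and 2 between confined genotypes. With the thresholds of the study's methods (fold change of 1.5 and p of 0.05, taken here as unadjusted) they were 5 for confinement in cPLA_2_ WT cells, 1 between nonconfined and 5 between confined genotypes, 1 between LPS labels (*Ptger3*) and 1 for the interaction of LPS and labelled genotype (*Ptges*). With each library left out in turn, counts ran from 8 to 9 for confinement in cPLA_2_ WT and 7 to 8 in cPLA_2_ KO. They ran from 6 to 7 for the interaction, 1 to 2 between nonconfined and 6 to 8 between confined genotypes. The LPS interaction had 0 to 1, and LPS under either label had 9. Confined cells against LPS libraries of the same labelled genotype had 7 to 8 for cPLA_2_ WT and 9 for cPLA_2_ KO. Replicate numbers did not pair the libraries, since no comparison had all 3 correlations of same-numbered libraries over 0.1 (for confined cPLA_2_ KO against cPLA_2_ WT, 0.338, 0.208 and 0.0402). The replicate block changed 1 of 11 counts, from 8 to 7 between confined genotypes (*Ptger3*, 0.63). Of 2140 values of single genes, 1981 kept direction and side of the threshold, 106 lost and 8 gained a call, 38 changed sign with neither value called, and 7 changed sign with a call before or after. Those 7 came with the same total per library. *Ptges3* changed sign in confined against nonconfined cPLA_2_ WT (-0.02) and in confined cPLA_2_ KO against cPLA_2_ WT cells (0.15). *Ptges2* did so in libraries labelled LPS cPLA_2_ WT (-0.06) and LPS cPLA_2_ KO (-0.01) against nonconfined cells. It also did so in confined cPLA_2_ KO cells against libraries labelled LPS cPLA_2_ KO (0.04). *Pla2g4a* did so in libraries labelled LPS cPLA_2_ WT against nonconfined cells (-0.06). It also did so in confined cPLA_2_ KO cells against libraries labelled LPS cPLA_2_ KO (0.24). The cause was not tested. Depth limits *Hpgd*, at 0 to 10 reads per library, and *Ptgs2os*.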
